A study of Homo sapiens with 8 samples.

Results

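The small nucleolar RNAs (snoRNAs) encoded in the imprinted clusters of chromosomes 14 and 15 were examined in 4 established human tumour cell lines. The members are all probe sets whose platform annotation names SNORD64, SNORD107, SNORD108, SNORD109, SNORD112, SNORD113, SNORD114, SNORD115 or SNORD116, with any suffix. The rule used no measured value, and it found 66 of the 33297 probe sets on the array. Of these, 6 name chromosome 14 genes (2 of SNORD113 and 4 of SNORD114) and 60 name chromosome 15 genes (1 of SNORD64, 2 of SNORD109, 29 of SNORD116 and 28 of SNORD115). Probe sets naming SNORD107, SNORD108 or SNORD112 were not analysed here, as the annotation used names none.

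The 8 arrays (Affymetrix Human Gene 1.0 ST, a whole-transcript array) carried RNA of cells separated by fluorescence-activated sorting with an antibody against ABCB5, a membrane transporter of the ATP-binding cassette family. There were 4 arrays of ABCB5-positive cells and 4 of ABCB5-negative cells, 1 of each for COLO741, SW620, HT29 and HCT116, and no line carried an added allele or agent. The labels describe HT29 as a colon adenocarcinoma line and the others as colon carcinoma lines, SW620 from a lymph node metastasis, and give the same serum-containing RPMI medium for all. SW480 stands in the text on the series design in the place of SW620, and the names given to single samples were kept.

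Most snoRNAs of the SNORD type carry box C and box D sequences, are trimmed out of introns of a longer host transcript, and guide the methylation of ribosomal RNA together with fibrillarin. Those of the imprinted clusters lie in long tandem arrays, have for the most part no known ribosomal RNA target, and are expressed from 1 parental chromosome. On chromosome 15 they come from the long RNA SNHG14, which starts at the SNURF/SNRPN promoter of the paternal chromosome and in neurons runs on across SNORD115 and antisense to UBE3A. Loss of the paternal copy of this region causes Prader-Willi syndrome, and the SNORD116 array is the part most closely tied to it. On chromosome 14 the SNORD112, SNORD113 and SNORD114 genes belong to the maternally expressed RNAs MEG3 and MEG8, in the domain that also holds the paternally expressed DLK1 and DIO3.

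The windows before the start sites of SNURF/SNRPN, where the chromosome 15 host RNA starts, of its paternally expressed neighbour NDN and of MEG3 are shown because SNORD64, SNORD109 and most of SNORD116 were higher in COLO741 together with SNURF/SNRPN and NDN, whereas neither the chromosome 14 members nor MEG3 passed the test there. Each is the 250 bases before a RefSeq transcript start (build GRCh38.p14), read 5′ to 3′ on the gene's strand, with every CG dinucleotide, the site of DNA methylation, in capitals. The SNURF/SNRPN window is chr15:24954737-24954986 on the plus strand, the NDN window chr15:23687306-23687555 on the minus strand, and the MEG3 window chr14:100825858-100826107 on the plus strand.
SNURF/SNRPN: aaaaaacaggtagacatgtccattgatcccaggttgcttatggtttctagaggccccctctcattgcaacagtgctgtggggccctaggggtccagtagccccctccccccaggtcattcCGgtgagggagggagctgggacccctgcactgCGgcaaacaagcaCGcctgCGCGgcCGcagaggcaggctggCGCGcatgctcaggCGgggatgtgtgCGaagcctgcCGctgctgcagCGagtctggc
NDN: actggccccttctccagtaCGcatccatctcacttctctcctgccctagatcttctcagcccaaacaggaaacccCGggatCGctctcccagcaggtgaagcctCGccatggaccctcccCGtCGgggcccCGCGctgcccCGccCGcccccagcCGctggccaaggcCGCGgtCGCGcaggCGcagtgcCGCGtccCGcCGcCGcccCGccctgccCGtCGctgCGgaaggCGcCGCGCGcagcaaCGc
MEG3: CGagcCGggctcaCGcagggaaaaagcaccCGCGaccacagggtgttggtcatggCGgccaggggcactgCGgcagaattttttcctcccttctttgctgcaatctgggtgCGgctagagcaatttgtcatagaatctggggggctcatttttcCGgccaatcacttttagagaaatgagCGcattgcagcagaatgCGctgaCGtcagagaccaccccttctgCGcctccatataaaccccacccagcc
The SNURF/SNRPN window holds 12 CG dinucleotides, and 48.5% of 35116 RefSeq windows of the same length hold at least as many. RefSeq lists 3 other SNRPN starts, whose windows, not printed, hold 6, 1 and 6. The NDN window holds 30, a number that 12.4% of the windows reach, and the MEG3 window holds 13, which 46.6% reach; the first of 3 listed MEG3 starts is shown. The search counted CG on both strands at once, since CG reads the same on either. Methylation was not measured on these arrays.

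All values are the authors' deposited log2 expression values, so that a difference of 1 is a doubling. Many members name several snoRNA copies, because the copies of an array are nearly alike in sequence: 50 probe sets name 1 copy and 16 name several, and together they name 80 different copies. In 5 sets, probe sets with different numbers hold identical values on all 8 arrays, so the 66 members give 60 distinct rows of values. For 9 members the annotation also names another gene, PWAR5 for SNORD64 and SNRPN or PWAR4 for members of the arrays. Olfactory receptor genes, whose products detect odours, served as a gauge of dim signal, and the means of their 379 probe sets had a median of 5.75 and a 95th percentile of 7.50. The extraction used Qiagen columns, which keep mainly longer RNA, and the signal of mature snoRNA and that of unspliced host transcript cannot be told apart with these probe sets.

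Both arrays of a line correlated at 0.993 to 0.996 over all probe sets. ABCB5 itself read 8.14 in ABCB5-positive and 9.42 in ABCB5-negative COLO741 cells, against the direction of the label, and 5.24 to 5.69 on the other 6 arrays. In COLO741, 9 of 10 colon epithelium markers were lower than in the other lines by limma's test at adjusted p under 0.05 and all 7 measured melanocyte markers were higher. EPCAM, an epithelial adhesion protein, read 5.36 in ABCB5-positive and 6.43 in ABCB5-negative COLO741 cells, against 13.32 to 13.77 on the other arrays. MLANA, a melanosome protein, read 13.24 and 13.49 in those COLO741 populations, against 5.75 to 6.44 elsewhere. These markers go against the labelled colon origin of COLO741, and the line is called by its label throughout.

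The 2 clusters differed in which of their members stood above the dim range. SNORD116 was higher in COLO741 than in SW620, HT29 and HCT116, where its medians were near the floor of the array. SNORD115 and the chromosome 14 snoRNAs stayed low on all 8 arrays. The median over the 29 SNORD116 probe sets was 7.82 in ABCB5-positive and 8.62 in ABCB5-negative COLO741 cells. Over all probe sets it was 8.05 and 8.03 on these arrays. The mean of both arrays gave a median of 8.26, against 6.61 over the SNORD116 probe sets that name a single gene. In SW620 the same median was 4.99 in ABCB5-positive and 4.55 in ABCB5-negative cells, in HT29 it was 4.62 and 4.51, and in HCT116 4.66 and 4.72, in the same order of populations. The median over the 28 SNORD115 probe sets by line was 3.77 in COLO741, 3.85 in SW620, 3.89 in HCT116 and 3.78 in HT29. For the 6 chromosome 14 probe sets it was 4.49 in COLO741, 4.41 in SW620, 4.39 in HCT116 and 4.40 in HT29.

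Set against the olfactory gauge, 23 members in ABCB5-positive and 28 in ABCB5-negative COLO741 cells exceeded its median. The count was 6 in ABCB5-positive and 4 in ABCB5-negative SW620 cells, 3 and 2 in HT29, and 3 in each population of HCT116. Past the 95th percentile of the gauge were 16 members in ABCB5-positive and 18 in ABCB5-negative COLO741 cells, 1 in ABCB5-positive SW620 cells and 0 on the other arrays. All members past the olfactory median were SNORD116, SNORD109 or SNORD64. No SNORD115 or chromosome 14 probe set exceeded it on any array, and their values lay between 3.26 and 5.40.

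**Figure D1:**
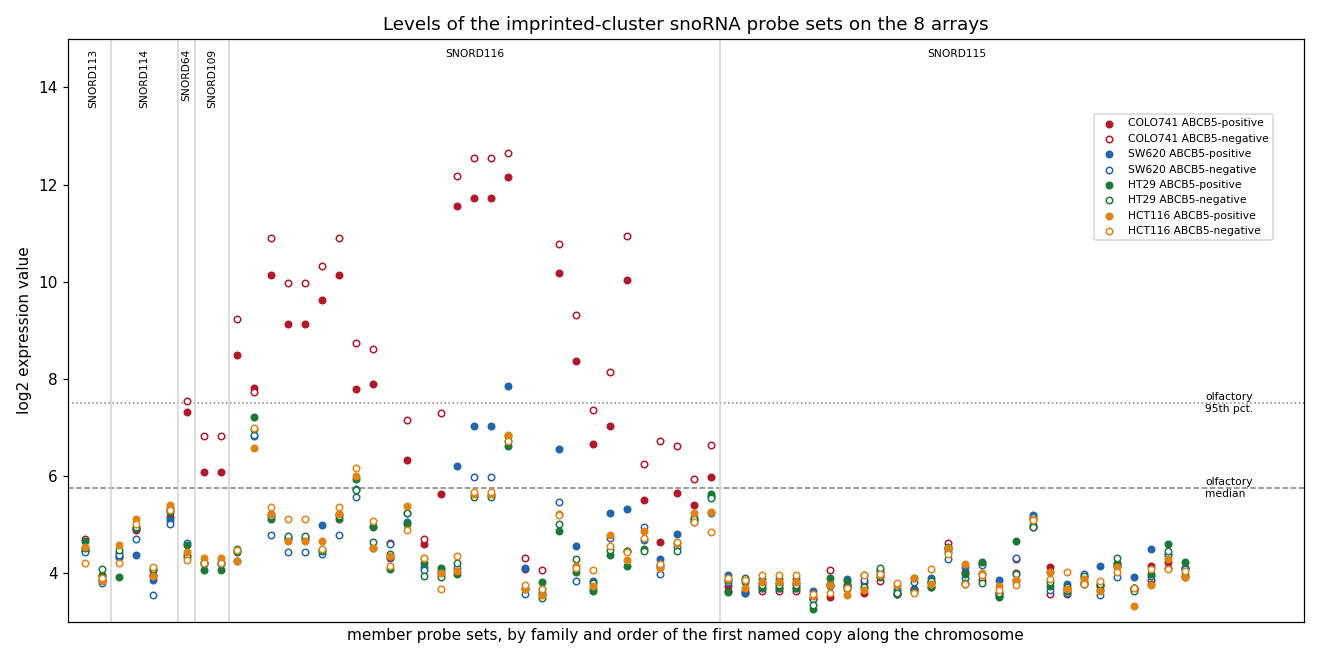
Log2 expression value (vertical axis) of the 66 member probe sets (horizontal axis, by family and in the order of the first copy each names) on the 8 arrays. Colours mark the lines, filled points the ABCB5-positive and open points the ABCB5-negative arrays, and the dashed and dotted lines the olfactory median (5.75) and 95th percentile (7.50). The COLO741 points of SNORD64, SNORD109 and most of SNORD116 stand above the rest, while the arrays mix in SNORD115 and on chromosome 14.

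Differences between the lines were tested with limma on all 33297 probe sets, with the sorted population as a covariate and Benjamini-Hochberg adjustment over the whole table. Each line has 2 arrays, its 2 sorted populations. These p-values therefore measure a line's difference against how far the population difference varies between lines. Separate cultures are not stated. The F test over the 4 lines passed adjusted p under 0.05 for 27 of 66 members, a share below the 45.7% of all probe sets that passed. By cluster these were 0 of 6 on chromosome 14 and 27 of 60 on chromosome 15. By family they were 24 of 29 for SNORD116, 2 of 2 for SNORD109, the single SNORD64 probe set and 0 of 28 for SNORD115. Among probe sets naming a SNORD gene outside the imprinted clusters 79 of 98 passed, and among those naming a SNORA gene 59 of 89. These sets, called other box C/D and H/ACA below, can also name a protein-coding gene, as the probe set of SNORD56 and NOP56 does. Their counts are therefore not of snoRNAs alone.

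The chromosome 15 members that differed were higher in COLO741 than in the other lines. Against the mean of the other 3 lines, 29 of 66 members were higher in COLO741 by limma at adjusted p under 0.05, where 14.1% of all probe sets were higher. None was lower, where 19.1% of all probe sets were. The 29 were 26 of 29 SNORD116 probe sets, both SNORD109 probe sets and SNORD64, and they hold 25 distinct rows of values. Their differences ran from 0.49 to 7.38 with a median of 3.22. For 22 of them all 6 other arrays lay under the olfactory median. These differences stand over a floor and are at best lower limits, whose sizes are not ranked between probe sets. For SNORD116-12 both COLO741 arrays were under that median as well (4.61 and 4.70, against 3.95 to 4.32 elsewhere). Its difference of 0.49 lay within the dim range and is no lower limit. On the same contrast, 6 of 98 other box C/D snoRNA probe sets were higher and 68 lower, with a median of -0.61, and 12 of 89 H/ACA probe sets were higher and 35 lower, with a median of -0.19, against a median of -0.06 over all probe sets. Both COLO741 arrays were above the 6 other arrays in 29 of 66 members and in 11.8% of all probe sets.

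SNORD64 lies between SNRPN and the SNORD116 array in the same host RNA, and its probe set (7981943) also names PWAR5. It read 7.32 in ABCB5-positive and 7.55 in ABCB5-negative COLO741 cells. In the other lines it read 4.38 in ABCB5-positive and 4.63 in ABCB5-negative SW620 cells, 4.58 and 4.34 in HT29, and 4.45 and 4.27 in HCT116. The COLO741 values stood clear of the other 6, which overlapped one another, and the difference was 3.0 ± 0.13 (SE, adjusted p = 3.14e-05, limma).

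SNORD109A and SNORD109B, the copies that flank the arrays, share 2 probe sets (7981947 and 7982098) with the same values, so that their levels cannot be separated. They read 6.09 in ABCB5-positive and 6.82 in ABCB5-negative COLO741 cells. The other arrays read 4.22 in ABCB5-positive and 4.19 in ABCB5-negative SW620 cells, 4.08 and 4.24 in HT29, and 4.32 and 4.21 in HCT116. Again only COLO741 stood apart among the 4 lines, by 2.25 ± 0.17 (SE, adjusted p = 0.000282, limma).

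SNORD116 is the tandem array of near-identical box C/D RNAs whose targets are unknown. SNORD116-1 (7981949) read 8.49 in ABCB5-positive and 9.24 in ABCB5-negative COLO741 cells, against 4.46 and 4.26 in SW620, 4.44 and 4.51 in HT29, and 4.25 and 4.48 in HCT116. It was 4.47 ± 0.18 higher in COLO741 (adjusted p = 2.48e-05, limma). A pair of probe sets naming SNORD116-3, SNORD116-5, SNORD116-7, SNORD116-8 and SNORD116-9 (7981953 and 7981966) read 10.14 in ABCB5-positive and 10.90 in ABCB5-negative COLO741 cells and 4.79 to 5.37 on the other 6 arrays, a difference of 5.37 ± 0.21 (adjusted p = 2.48e-05, limma).

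SNORD116-14 (probe set 7981976) read 11.56 in ABCB5-positive and 12.18 in ABCB5-negative COLO741 cells, 6.21 in ABCB5-positive and 4.11 in ABCB5-negative SW620 cells, 4.00 and 4.21 in HT29, and 4.05 and 4.35 in HCT116. COLO741 was 7.38 ± 0.52 higher (adjusted p = 0.000214, limma), and the ABCB5-positive SW620 array stood above the other 5 arrays of the remaining lines. SNORD116-15 (probe set 7981978) showed the same order, with 12.15 in ABCB5-positive and 12.65 in ABCB5-negative COLO741 cells, 7.86 in ABCB5-positive and 6.72 in ABCB5-negative SW620 cells, 6.62 and 6.82 in HT29, and 6.86 and 6.72 in HCT116. Its difference was 5.47 ± 0.30 (adjusted p = 8.48e-05, limma).

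A pair of probe sets naming SNORD116-14 through SNORD116-22, and SNRPN as well, read 11.73 in ABCB5-positive and 12.55 in ABCB5-negative COLO741 cells. They read 7.04 in ABCB5-positive and 5.98 in ABCB5-negative SW620 cells, 5.61 and 5.56 in HT29, and 5.63 and 5.68 in HCT116. The difference of COLO741 was 6.22 ± 0.32 (adjusted p = 6.91e-05, limma).

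SNORD116-10, SNORD116-16 and SNORD116-18 did not pass the test in COLO741. SNORD116-18 (probe set 7981984), the member of the family with the lowest mean over the arrays, read 3.56 in ABCB5-positive and 4.06 in ABCB5-negative COLO741 cells, 3.68 and 3.60 in SW620, 3.82 and 3.50 in HT29, and 3.56 and 3.67 in HCT116. The lines overlapped, and its difference was 0.17 ± 0.16 (adjusted p = 0.472, limma). SNORD116-10 differed by 0.14 ± 0.12 (adjusted p = 0.441, limma) and SNORD116-16 by 0.45 ± 0.15 (adjusted p = 0.0715, limma). SNORD116-16 and SNORD116-18 are also among the copies named by the shared probe sets that were high in COLO741, so probe sets that name the same copy did not give the same answer.

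Along the array, whose copies RefSeq lists in number order on the chromosome, the calls and differences were as follows. Of the 9 probe sets naming only copies 1 to 9, 9 were higher in COLO741 with a median difference of 4.82. Of the 15 naming only copies 10 to 24, 12 were higher, with a median of 3.22 and a range of 0.14 to 7.38. All 5 naming copies 25 to 29 were higher, with a median of 1.19 and none above 1.54. These ranges of copies were set after the values had been seen, carry no test, and compare different probe sets over lines mostly under the olfactory median, so no order along the array is read from them. The calls of least margin were in the last range: SNORD116-26 (adjusted p = 0.0474, limma) read 4.65 in ABCB5-positive and 6.72 in ABCB5-negative COLO741 cells against 3.98 to 4.29 elsewhere, and SNORD116-28 (adjusted p = 0.0321, limma) read 5.41 and 5.94 against 5.05 to 5.24. Without the ABCB5-negative COLO741 array the difference of SNORD116-26 was 0.45, in place of 1.54, and that of SNORD116-28 was 0.25, in place of 0.56, and neither passed.

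**Figure D2:**
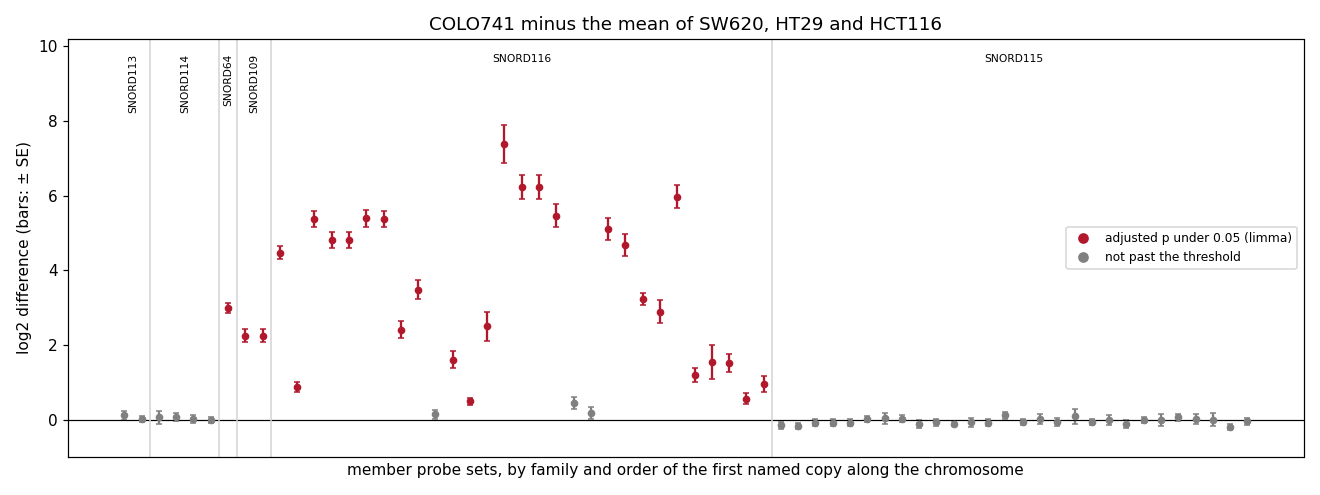
Log2 difference of COLO741 from the mean of SW620, HT29 and HCT116 (vertical axis, bars ± SE from limma) for the 66 member probe sets (horizontal axis, by family). Red points passed adjusted p under 0.05, namely 26 of 29 SNORD116 probe sets, both SNORD109 probe sets and SNORD64, and all SNORD113, SNORD114 and SNORD115 points lie near 0.

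SNORD115, the array next to SNORD116 in the direction of UBE3A, pairs in its sequence with the serotonin receptor mRNA of HTR2C and is used mainly in the brain. None of its 28 probe sets differed in COLO741 by limma at adjusted p under 0.05, and 1 did so at an unadjusted p under 0.05. SNORD115-32 (probe set 7982070) read 4.95 in ABCB5-positive and 5.13 in ABCB5-negative COLO741 cells, 5.21 and 5.16 in SW620, 5.00 and 4.95 in HT29, and 5.12 and 5.10 in HCT116. SNORD115-24 read 4.30 to 4.63 over the 8 arrays, and the lines overlapped. SNORD115-4, with the lowest mean of the family, read 3.26 in ABCB5-positive and 3.35 in ABCB5-negative HT29 cells, below the 3.48 to 3.63 of the other 6 arrays, a difference in HT29 of -0.22 ± 0.08 that did not pass (adjusted p = 0.0985, limma).

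The largest spread between line means in SNORD115 was that of SNORD115-31, with 3.76 to 4.66 over the arrays, and of SNORD115-44 (probe set 7982094). SNORD115-44 read 4.61 in ABCB5-positive and 4.46 in ABCB5-negative HT29 cells, 4.23 and 4.12 in COLO741, 4.38 and 4.41 in SW620, and 4.29 and 4.09 in HCT116. It was 0.28 ± 0.08 higher in HT29 than in the mean of the other lines (adjusted p = 0.0451, limma), the only member higher in that line, where 13.3% of all probe sets were higher. All its values lay under the olfactory median, and its F test over the lines did not pass (adjusted p = 0.0565). The call was lost in 7 of the 8 fits that each left out 1 array.

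On chromosome 14 the SNORD113 and SNORD114 genes are tandem box C/D copies in the maternally expressed RNA MEG8, and none of the 6 probe sets differed between the lines by the F test. SNORD113-3 (probe set 7976810) read 4.48 in ABCB5-positive and 4.72 in ABCB5-negative COLO741 cells, 4.49 and 4.44 in SW620, 4.67 and 4.51 in HT29, and 4.53 and 4.21 in HCT116. SNORD113-4 read 3.79 to 4.09 over the arrays, SNORD114-2 3.92 to 4.59, SNORD114-6 3.56 to 4.12, and SNORD114-26 5.03 to 5.40. The differences of COLO741 from the other lines ran from -0.01 to 0.12 in the 6 probe sets, and none had an unadjusted p under 0.05.

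SNORD114-3 (probe set 7976816) had the smallest F test p of the cluster (adjusted p = 0.0567, limma). It read 4.37 in ABCB5-positive and 4.71 in ABCB5-negative SW620 cells, 4.90 and 4.92 in COLO741, 4.93 and 4.96 in HT29, and 5.11 and 5.01 in HCT116, so that both SW620 arrays were below the other 6. SW620 was lower than the mean of the other lines, with a difference of -0.43 ± 0.10 (adjusted p = 0.0261, limma). It was the only chromosome 14 member of the 18 members lower in SW620, and 13.4% of all probe sets were lower there. The call was lost in 5 of the 8 fits that each left out 1 array, and a loss of signal cannot be read from values that all lie under the olfactory median.

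In the order of the lines, COLO741 stood apart, and SW620, HT29 and HCT116 were separated from one another by 1 member of each cluster. Between pairs of lines, 26 members were higher in COLO741 than in HCT116 (12.9% of all probe sets), 26 than in HT29 (13.5%) and 27 than in SW620 (13.4%). SNORD115-44 was lower in COLO741 than in HT29, with a difference of -0.36 ± 0.10 (adjusted p = 0.0358, limma), where 16.4% of all probe sets were lower. Between HT29 and HCT116, SNORD115-44 alone was higher (11.6%), and between SW620 and HCT116, SNORD114-3 alone was lower (11.2%). No member differed between SW620 and HT29, where 12.7% of all probe sets were higher and 11.8% lower. Against the mean of the other lines, 18 members were lower in SW620, 21 in HT29 and 18 in HCT116, in contrasts where COLO741 is part of the mean and where 13.4%, 13.3% and 12.3% of all probe sets were lower. The chromosome 15 counts, 17 in SW620, 21 in HT29 and 18 in HCT116, came to 8 without the ABCB5-negative SW620 array, 12 without either HT29 array, and 5 without the ABCB5-positive or 8 without the ABCB5-negative HCT116 array.

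The comparison of ABCB5-positive with ABCB5-negative cells over the 4 lines gave no called member. By limma with the line as a block, 0 of 66 members passed adjusted p under 0.05, as did 0% of all probe sets, and 1 member and 1744 probe sets had an unadjusted p under 0.05. The member was SNORD115-25, at 4.02, 4.13, 3.99 and 4.20 in ABCB5-positive COLO741, SW620, HT29 and HCT116 cells and 3.78, 3.90, 3.80 and 3.79 in ABCB5-negative cells of the same lines. It was higher in ABCB5-positive cells of all 4 lines, by 0.27 ± 0.09 (SD, n = 4 lines; adjusted p = 0.9, limma). SNORD115-33 differed by 0.25 ± 0.28 (SD, n = 4 lines; adjusted p = 0.9, limma), and on chromosome 14 the smallest unadjusted p belonged to SNORD114-3, at -0.07 ± 0.19, and SNORD113-4, at -0.05 ± 0.09 (SD, n = 4 lines; adjusted p = 0.923 for both, limma).

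Within single lines, as the arrays are labelled, the SNORD116 probe sets went opposite ways in COLO741 and SW620, with 1 array per population and no test. The ABCB5 transcript goes against the COLO741 labels, and if those were exchanged every COLO741 difference below would change sign and the opposition to SW620 would be gone. The 29 probe sets hold 26 distinct rows of values and partly name the same copies. In COLO741 28 of 29 were lower in ABCB5-positive cells, with a median difference of -0.75 and a range of -2.08 to 0.08. Of all 33297 probe sets 17564 were lower there, as were 77 of 98 other box C/D and 69 of 89 H/ACA probe sets. In SW620 24 of 29 were higher in ABCB5-positive cells, with a median of 0.31 and a range of -0.27 to 2.10. Of all probe sets 15939 were higher there, as were 37 of 98 other box C/D and 36 of 89 H/ACA probe sets. In HT29 the median was -0.03 with 14 higher and 15 lower, and in HCT116 it was -0.05 with 11 higher and 18 lower.

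At 1.5-fold or more, 24 members were lower in ABCB5-positive COLO741 cells (22 SNORD116 and 2 SNORD109), where 2.29% of all probe sets were, and 0 were higher (3.8% of all probe sets were). The other box C/D probe sets had a median difference of -0.34 in this line, with 13 of 98 at least 1.5-fold lower, and all probe sets a median of -0.01. On the same pair of arrays the SNURF/SNRPN probe set differed by -0.76, NDN by -1.10 and ABCB5 by -1.28, all lower in ABCB5-positive cells. Colon epithelium markers summed to 78.6 in ABCB5-positive and 80.0 in ABCB5-negative COLO741 cells, and melanocyte markers to 89.5 and 90.5. Their part in the result was not tested.

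In SW620, 8 members were at least 1.5-fold higher in ABCB5-positive cells, where 1.98% of all probe sets were, and 0 were lower (2.58% of all probe sets were). Of these, 7 were SNORD116 probe sets naming copies 14 to 24: SNORD116-14 at 2.10, SNORD116-15 at 1.14, SNORD116-20 at 1.08, SNORD116-24 at 0.88, SNORD116-21 at 0.72 and the pair naming SNORD116-14 through SNORD116-22 at 1.06. The eighth was SNORD115-37, at 0.60. In ABCB5-positive and ABCB5-negative SW620 cells SNORD116-24 read 5.33 and 4.45, SNORD116-21 4.57 and 3.85, and SNORD115-37 4.15 and 3.55. These values all lay under the olfactory median, so no change in expression is read from them. No SNORD116 probe set of copies 1 to 9 or 25 to 29 reached 1.5-fold, a log2 difference of 0.585. However, probe set 7981964, naming SNORD116-3, SNORD116-6, SNORD116-8 and SNORD116-9, missed it narrowly at 0.583. These ranges of copies were set after the values had been seen, so no confinement to copies 14 to 24 is read from them. On the same arrays 9 of 10 leukocyte and phagocyte markers were higher in ABCB5-positive SW620 cells, with summed log2 values of 84.6 in ABCB5-positive and 72.1 in ABCB5-negative cells, against 73.0 to 74.2 on the other 6 arrays. CYBB, a subunit of the phagocyte oxidase, read 9.28 in ABCB5-positive and 6.06 in ABCB5-negative SW620 cells, and PTPRC, the leukocyte surface protein CD45, 6.96 and 4.87. Their part in the SNORD116 difference was not tested. SNURF/SNRPN read 6.16 in ABCB5-positive and 6.01 in ABCB5-negative SW620 cells, close to the olfactory median.

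In HT29, SNORD115-31 was the only member at 1.5-fold or more, 0.66 higher in ABCB5-positive cells (1.42% of all probe sets were higher by as much), and none was lower by as much (1.95%). SNORD115-31 read 4.66 in ABCB5-positive and 3.99 in ABCB5-negative HT29 cells, both under the olfactory median. In HCT116 no member reached 1.5-fold in either direction, where 0.916% of all probe sets were higher and 2.2% lower by as much.

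**Figure D3:**
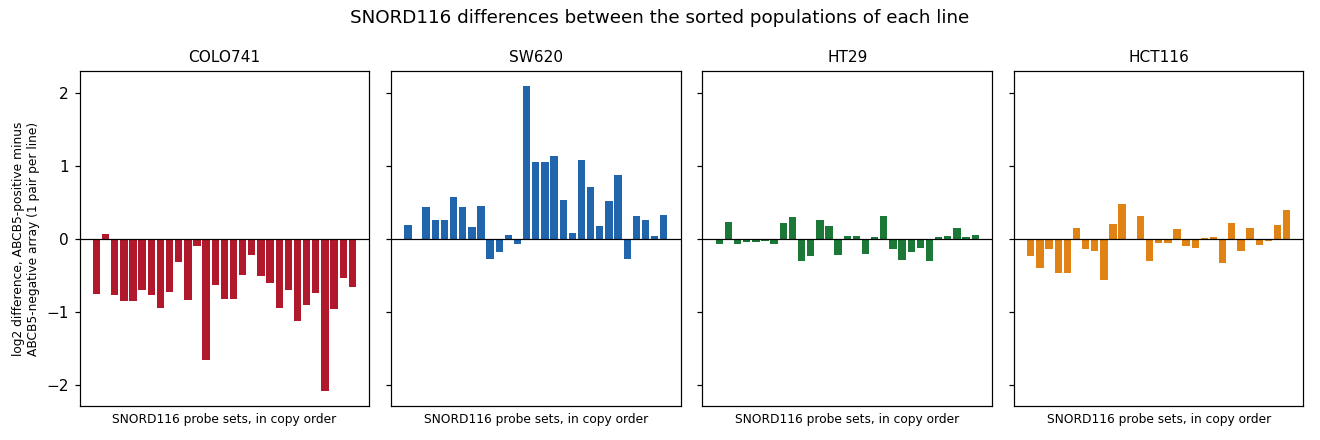
Log2 difference between the ABCB5-positive and the ABCB5-negative array (vertical axis) of each of the 29 SNORD116 probe sets (horizontal axis, in order of the first copy named), in a panel for each line, with 1 pair of arrays per line and no error bar. Bars run below 0 in COLO741 for 28 of 29 probe sets (median -0.75), mostly above 0 in SW620 (median 0.31, highest 2.10) and to both sides in HT29 and HCT116.

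The protein-coding start of the host unit moved with its snoRNAs. The probe set that names SNURF and SNRPN, whose product SmN is a spliceosomal protein, read 9.38 in ABCB5-positive and 10.14 in ABCB5-negative COLO741 cells. It read 6.16 in ABCB5-positive and 6.01 in ABCB5-negative SW620 cells, 5.98 and 6.05 in HT29, and 6.05 and 6.11 in HCT116. COLO741 was 3.70 ± 0.18 higher (adjusted p = 4.74e-05, limma); the other 6 arrays lay between 5.98 and 6.16.

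Other paternally expressed genes of the region did not all follow. NDN, a MAGE family protein of neurons, read 6.99 in ABCB5-positive and 8.09 in ABCB5-negative COLO741 cells and 5.77 to 6.22 on the other arrays, 1.60 ± 0.24 higher (adjusted p = 0.00389, limma). MKRN3, a ubiquitin ligase gene that restrains the onset of puberty, was lower in COLO741 than the mean of the other lines. It read 7.79 in ABCB5-positive and 7.70 in ABCB5-negative COLO741 cells. The same populations read 8.88 and 8.90 in SW620, 7.83 and 7.89 in HT29, and 8.57 and 8.59 in HCT116. The difference was -0.70 ± 0.07 (adjusted p = 0.000915, limma). COLO741 did not differ from HT29 (-0.12, adjusted p = 0.397, limma), and HT29 was also lower than the mean of the other lines (-0.54, adjusted p = 0.00308, limma). MAGEL2, NPAP1 and PWAR6 did not pass. Of this list of 15 genes, 7 were measured by 6 probe sets, of which 2 were higher and 1 lower in COLO741, beside the 14.1% and 19.1% of all probe sets. SNHG14 and IPW are not named by the annotation used.

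Past the arrays, UBE3A, the ubiquitin ligase gene of Angelman syndrome, read 10.87 in ABCB5-positive and 11.28 in ABCB5-negative COLO741 cells, 10.88 and 10.82 in SW620, 11.29 and 11.26 in HT29, and 10.93 and 11.06 in HCT116. The lines overlapped, and COLO741 differed by 0.03 ± 0.11 (adjusted p = 0.868, limma). Of the 10 measured neighbours on chromosome 15, 3 were higher in COLO741 (14.1% of all probe sets) and 1 lower (19.1%). OCA2, a melanosome transporter gene of pigment cells, read 12.10 in ABCB5-positive and 13.05 in ABCB5-negative COLO741 cells and 7.41 to 7.83 on the other arrays, 4.98 ± 0.24 higher (adjusted p = 5.3e-05, limma). The GABA receptor gene GABRG3 was 2.26 ± 0.26 higher (adjusted p = 0.00142, limma), and GABRA5, named after its value was seen, 1.54 ± 0.24 higher (adjusted p = 0.00423, limma). CYFIP1, a regulator of actin assembly, was lower, with a difference of -0.40 ± 0.09 (adjusted p = 0.0173, limma).

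**Figure D4:**
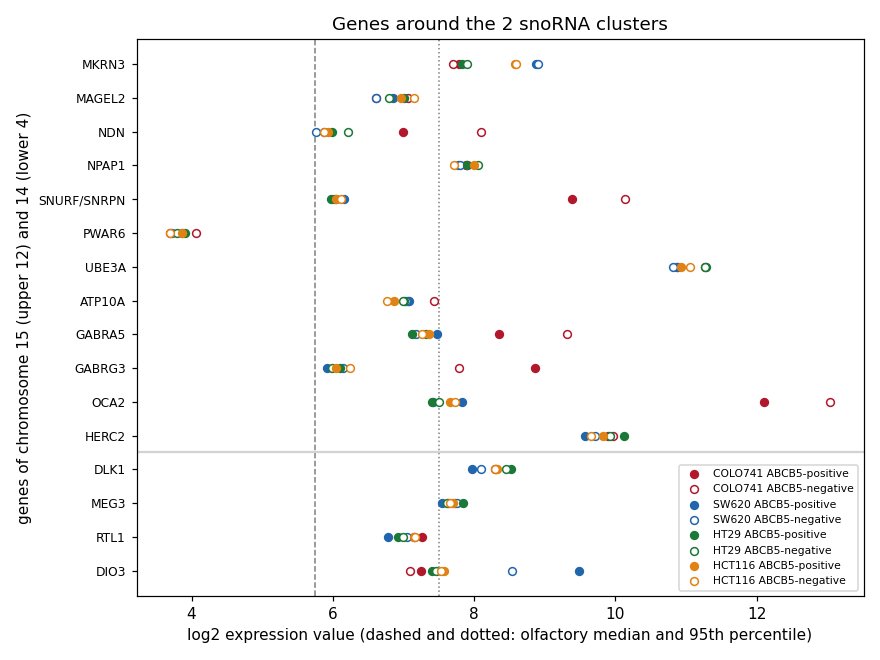
Log2 expression value (horizontal axis) of genes around the snoRNA clusters of chromosome 15 (upper 12) and chromosome 14 (lower 4) on the 8 arrays, with colours for the lines, filled points for ABCB5-positive and open points for ABCB5-negative arrays, and the olfactory median and 95th percentile as dashed and dotted lines. COLO741 stands apart at SNURF/SNRPN, NDN, GABRA5, GABRG3 and OCA2 and lies among the other lines at UBE3A and MEG3.

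Around the chromosome 14 cluster, MEG3, the long RNA that begins the maternally expressed unit, read 7.63 in ABCB5-positive and 7.73 in ABCB5-negative COLO741 cells, 7.55 and 7.76 in SW620, 7.84 and 7.62 in HT29, and 7.70 and 7.66 in HCT116. The lines overlapped as they did for the snoRNAs, with a difference of -0.01 ± 0.10 in COLO741 (adjusted p = 0.967, limma). MEG3 lay just over the 95th olfactory percentile (7.50) on every array, whereas the chromosome 14 snoRNAs lay under the olfactory median. MEG8 is not named by the annotation used. DLK1, a Notch-related membrane protein gene, read 7.96 in ABCB5-positive and 8.09 in ABCB5-negative SW620 cells, 8.53 and 8.46 in HT29, and 8.30 to 8.33 on the 4 arrays of COLO741 and HCT116. It was lower in SW620, with a difference of -0.34 ± 0.08 (adjusted p = 0.0209, limma), and higher in HT29, by 0.28 ± 0.08 (adjusted p = 0.0431, limma). RTL1 read 6.78 to 7.26.

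Of the 3 paternally expressed genes of the domain, DIO3 and DLK1 passed the F test. DIO3, the gene of the enzyme that inactivates thyroid hormone, read 9.49 in ABCB5-positive and 8.54 in ABCB5-negative SW620 cells, 7.24 and 7.09 in COLO741, 7.41 and 7.46 in HT29, and 7.58 and 7.54 in HCT116. It was higher in SW620, by 1.63 ± 0.20 (adjusted p = 0.00262, limma), and lower in COLO741, with a difference of -0.84 ± 0.20 (adjusted p = 0.0235, limma). The latter mean includes SW620, and COLO741 did not differ from HT29 (adjusted p = 0.485, limma) or HCT116 (adjusted p = 0.304, limma). Of the 50 listed microRNA genes of the domain 16 were measured, and 2 passed the F test (45.7% of all probe sets), MIR494 (adjusted p = 0.0192, limma) at 6.14 to 6.75 and MIR154 (adjusted p = 0.0397, limma) at 4.03 to 4.66. None passed in COLO741. Of the 9 genes beside the domain, 7 passed the F test (45.7%), with 3 higher (14.1%) and 2 lower (19.1%) in COLO741. DEGS2, PPP2R5C and DYNC1H1 had the smallest p, and PPP2R5C differed in COLO741 by -0.62 ± 0.08 (adjusted p = 0.00246, limma) and DYNC1H1 by 0.48 ± 0.09 (adjusted p = 0.00886, limma).

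The transcripts of the core proteins of box C/D particles did not rise with SNORD116. In COLO741 fibrillarin (FBL), the methyltransferase of the particle, differed by -0.34 ± 0.07 (adjusted p = 0.0143, limma), NOP56, on a probe set that also names the snoRNA SNORD56, by -0.36 ± 0.09 (adjusted p = 0.0301, limma) and NOP58 by -0.53 ± 0.08 (adjusted p = 0.00436, limma), all lower, and SNU13, on a probe set that also names ANXA2, by -0.07 ± 0.09 (adjusted p = 0.606, limma). Of all probe sets 45.7% passed the F test, and 14.1% were higher and 19.1% lower in COLO741. Of 9 assembly factors, 5 passed the F test, and 0 were higher and 3 lower. Of 12 genes of imprint maintenance and DNA methylation, 8 passed the F test, and 2 were higher and 4 lower in COLO741.

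Of those 12, TET1, an enzyme that oxidises methylated cytosine, had the smallest F test p and read 8.91 in ABCB5-positive and 8.86 in ABCB5-negative COLO741 cells, 9.83 and 10.25 in SW620, 6.04 and 6.27 in HT29, and 8.20 and 8.17 in HCT116. The DNA methyltransferase gene DNMT3B differed in COLO741 by -0.58 ± 0.08 (adjusted p = 0.00231, limma), and TRIM28, a corepressor that holds imprints, by -0.93 ± 0.08 (adjusted p = 0.000542, limma). Of imprinted genes of other loci, measured by 16 probe sets, 11 passed the F test (45.7% of all probe sets), and 4 were higher (14.1%) and 2 lower (19.1%) in COLO741. The lists of imprint maintenance genes and of other imprinted loci thus went in mixed directions in COLO741. The called members of the chromosome 15 snoRNA cluster went 1 way, but they come from 1 host RNA and partly name the same copies. They are therefore not comparable with lists of separate genes.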

How the data were processed

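The authors deposited log2 expression values for 33297 probe sets on 8 arrays (range 2.99 to 15.24, 0 missing), made with Affymetrix Expression Console per the submitters' processing notes. Not given in the sources used here are its version, the summarisation, the background correction and the normalization, and the log2 scale was read from the values. Array medians lay between 8.03 and 8.10, so no further normalization was applied. The number of arrays limits the precision.

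Members were found in the platform annotation, and names were matched to RefSeq for all 168 identifiers. All probe sets were kept and fitted with limma 3.58.1 in R 4.3.3, as a mean per line plus a population term (3 residual degrees of freedom, 2.895 prior), with two-sided p-values adjusted by Benjamini-Hochberg at 0.05. Contrasts were the sort, an F test over lines, each of 4 lines against the others, and 6 pairs. Within a line, where each population has 1 array, differences were described at 1.5-fold. The line pairs the populations by its label, and the pairing check (correlation of deviations from the population means) gave 0.866 to 0.916. The fit was tested on simulated data.

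The members and lists were chosen with earlier results of these data known. Named singly were all SNORD64 and SNORD109 probe sets and, per family of SNORD113 to SNORD116, the extremes of mean and of line range, the smallest p-values of the sort and of the F test in each cluster, and the 3 smallest F test p-values of each gene list. SNORD116 copies beyond these were named after their values were seen. Alternatives were another normalization, another model, fewer probe sets and each array left out. Tables were handled with Python 3.11.15 and pandas 2.3.3.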

Additional observations from a re-analysis of the deposited data

Results flagged for a closer look

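Among the 4 arrays of a population, COLO741 stood farther from the other lines than Dixon's 95% critical value for the SNORD116 median, at 7.82 in ABCB5-positive and 8.62 in ABCB5-negative cells. The same held for the median of all chromosome 15 members in ABCB5-negative cells, at 4.67. COLO741 was high in this way for 11 SNORD116 probe sets among the ABCB5-positive arrays and 22 among the ABCB5-negative arrays, for both SNORD109 probe sets (2 and 2) and for the SNORD64 probe set (1 and 1). The host probe set of SNURF and SNRPN stood apart at 9.38 in ABCB5-positive and 10.14 in ABCB5-negative COLO741 cells, and NDN at 6.99 in ABCB5-positive COLO741 cells.

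Single probe sets stood apart elsewhere among the ABCB5-negative arrays: SW620 was low for 1 SNORD114 probe set, COLO741 low for 1 SNORD115 probe set and HCT116 high for 1 SNORD115 probe set. Of 132 such comparisons over the members 42 passed, where the critical value is set for about 1 in 20. The comparison was not made over all probe sets, and the members include rows of identical values. The 42 therefore cannot be set against that rate. Both COLO741 arrays were above the 6 other arrays in 11.8% of all probe sets.

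The median SNORD116 difference between ABCB5-positive and ABCB5-negative cells was 0.31 in SW620 and -0.75 in COLO741, opposite in sign. With 1 pair of arrays per line the difference between the lines was not tested, and an exchange of the COLO741 labels would turn the sign of its value.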

How the results depend on the processing

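Of 348 alternative values of the counts and medians, 297 stayed within set limits. These were 1.5 times a count, the SD between the 2 sorted populations of a line for its median level, and the SD between lines for a sort difference. The populations are not replicates of one another. The sign was followed only for the 29 members called in COLO741, and none of these differences changed it. With identical rows counted once, 25 chromosome 15 members were higher in COLO741. With dim probe sets left out only 13 chromosome 15 members remained, most through their COLO741 level alone, which fixes these counts and makes them no support: 13 passed the F test, 13 were higher in COLO741, 10 lower in SW620 and 12 lower and 0 higher in HT29, and the chromosome 14 count lower in SW620 was 0. On chromosome 14, 1 member passed the F test over annotated probe sets or with no population covariate. The single HT29 call on chromosome 15 was 0 under quantile normalization or with no covariate. Without both COLO741 arrays, an alternative added after the data were seen, 1 chromosome 15 member passed the F test. The causes of the other shifts were not tested.

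Leaving out each array in turn gave 0 to 1 chromosome 14 and 25 to 28 chromosome 15 members by the F test, 25 to 29 chromosome 15 members higher in COLO741, 8 to 24 lower in SW620, 12 to 25 lower and 0 to 1 higher in HT29, and 5 to 25 lower in HCT116. On chromosome 14 it gave 0 to 1 lower in SW620 and 0 to 1 higher in HCT116. The count in SW620 was 8 without the ABCB5-negative SW620 array, that in HT29 12 without either HT29 array, and that in HCT116 5 without the ABCB5-positive and 8 without the ABCB5-negative HCT116 array. The mean over lines of the median sort difference ranged from -0.02 to 0.04 on chromosome 14, -0.10 to 0.03 on chromosome 15, -0.27 to 0.08 in SNORD116 and -0.02 to 0.04 in SNORD115, and the sort called 0 members in each case. Of 29 members called in COLO741, SNORD116-12, SNORD116-26, SNORD116-28 and SNORD116-29 were lost without its ABCB5-negative array. Some calls were also lost without either array of SW620, HT29 or HCT116, so the weakest do not depend on that array alone.

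The sort test paired the populations by line. With no replicate block 0 members were called, and with the line as a random replicate block (correlation 0.755) 0 as well.

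Median levels moved with the choice of probe sets. With those naming 1 gene, the chromosome 15 median was 4.34 in COLO741, 4.10 in HT29 and 4.04 in HCT116, that of SNORD116 6.61, 4.37 and 4.36 in those lines, and that of SNORD115 3.85 in COLO741 and 3.87 in HT29. Past the 95th olfactory percentile 1 member remained, SNORD116-15, through its COLO741 level, so that no comparison of lines can rest on it and the chromosome 15 and SNORD116 medians were its values, 12.40 in COLO741, 7.29 in SW620, 6.79 in HCT116 and 6.72 in HT29, and its mean sort difference was 0.15. No chromosome 14 or SNORD115 member remained to give a value. Quantile normalization gave 4.13 for chromosome 15 in HT29 and 3.81 for SNORD115 in COLO741, and centring gave 4.11 for chromosome 15 in HCT116 and 3.80 for SNORD115 in COLO741. Signal limits the comparison of SNORD115 and chromosome 14, all under the olfactory median.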
